A study of Drosophila melanogaster with 2 samples.

Results

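The translation factor genes of Drosophila melanogaster were taken as the protein-coding genes of the Ensembl BDGP6 annotation whose symbol begins with eIF (eukaryotic initiation factor) or eEF (eukaryotic elongation factor), which gave 52 of the 13968 protein-coding genes on the chromosome arms. Atf6 binding at their promoters was read from chromatin immunoprecipitation with sequencing of whole embryos aged 0 to 24 h. There was 1 group of 2 biological replicates, embryos of the transgenic strain Atf6-GFP, which makes Atf6 fused to enhanced green fluorescent protein (eGFP), and chromatin was precipitated with an anti-GFP antibody. Both replicates carry the transgene, no embryos without it were analysed here, and all cell types of the age range are pooled. A gene was called bound where the summit of a peak in the authors' thresholded list of both replicates (5846 peaks, the main list) lay within 500 bp of any of its transcription start sites (TSSs). Signal is the authors' score for a peak, on an unstated scale, and is compared only within 1 list. The number of reads behind the lists is unknown.

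Initiation factors bring the initiator tRNA, the mRNA cap and the ribosomal subunits together at a start codon, and elongation factors then deliver aminoacyl-tRNAs and move the ribosome along the message. During stress of the endoplasmic reticulum (ER), where vertebrate ATF6 is cut free of the membrane to activate chaperone genes, the kinase PEK phosphorylates the alpha subunit of eIF2, which lowers initiation. Promoters of growth genes in flies often carry the site of the factor Dref, an element known from genes of DNA replication and cell proliferation.

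Of the 19 bound summits, 6 had the Dref word TATCGATA within 50 bp, and their surroundings are printed because, of the 8 words searched, this one had the largest difference in share from all bound promoters. Sequences are from the RefSeq copy of the dm6 assembly, 5′ to 3′ on the strand of the gene, with the word in capitals. For eIF1, eIF3a, eIF3f1, eIF2gamma and eEF1gamma they hold the part outside annotated exons, within 75 bp of the summit. For eIF2A, where the word lies in an exon outside coding sequence, 30 bases are given.
eIF1, chr3L:3222979-3223129, plus strand: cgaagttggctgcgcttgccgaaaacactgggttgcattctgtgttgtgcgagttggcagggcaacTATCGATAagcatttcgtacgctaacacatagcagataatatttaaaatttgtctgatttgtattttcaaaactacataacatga
eIF2A, chr3L:21824865-21824894, plus strand: ttactatcgctTATCGATAcaccgcgtaca
eIF2gamma, chr3R:15263459-15263551, minus strand: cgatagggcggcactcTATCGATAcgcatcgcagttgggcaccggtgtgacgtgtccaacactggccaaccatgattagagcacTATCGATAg
eIF3a, chr3R:4433896-4433964, minus strand: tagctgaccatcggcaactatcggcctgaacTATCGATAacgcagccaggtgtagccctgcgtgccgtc
eIF3f1, chr3R:4714183-4714298, minus strand: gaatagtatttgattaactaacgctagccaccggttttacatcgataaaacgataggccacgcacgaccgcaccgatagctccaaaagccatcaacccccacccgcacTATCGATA
eEF1gamma, chr3R:29220057-29220171, plus strand: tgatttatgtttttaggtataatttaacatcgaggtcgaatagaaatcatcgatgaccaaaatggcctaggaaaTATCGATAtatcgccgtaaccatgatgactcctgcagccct

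Binding covered a part of the factor genes. Of the 52 genes, 19 had a promoter summit in the main list (36.5%, 95% Wilson interval 24.8 to 50.1), against 21.6% of all protein-coding genes. A further 24 (46.2%) had only a region of the longer ranked list at the promoter, as did 7526 of the 13968 protein-coding genes. The other 9 had no ranked summit there at all, where 75.5% of all genes had one. With the peaks of replicate 2 alone 15 of the 52 were bound, where 14.2% of all genes were, and with those of replicate 1 alone 12 were, where 16.7% of all genes were. Leaving out replicate 2 therefore lowered the count by more than 1.5 times. Genes with several TSSs were bound more often in general: 12 of 20 factor genes with 2 or more TSSs were bound, against 37.4% of all such genes, and 7 of 32 with 1 TSS, against 15.9%. Intervals cover counting error over genes only.

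The bound promoters ranged widely in signal. The 19 peaks had a median signal of 149, from 66.1 at eIF4E1 to 986 at eIF6, and the 2699 promoter peaks of the main list had a median of 108. In percentiles of those promoter peaks the median factor gene stood at 68.0. With the list of replicate 1 alone the median percentile was 54.5. eIF6 and eEF1gamma stood well above the rest, since the next highest signal was 193.

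**Figure D1:**
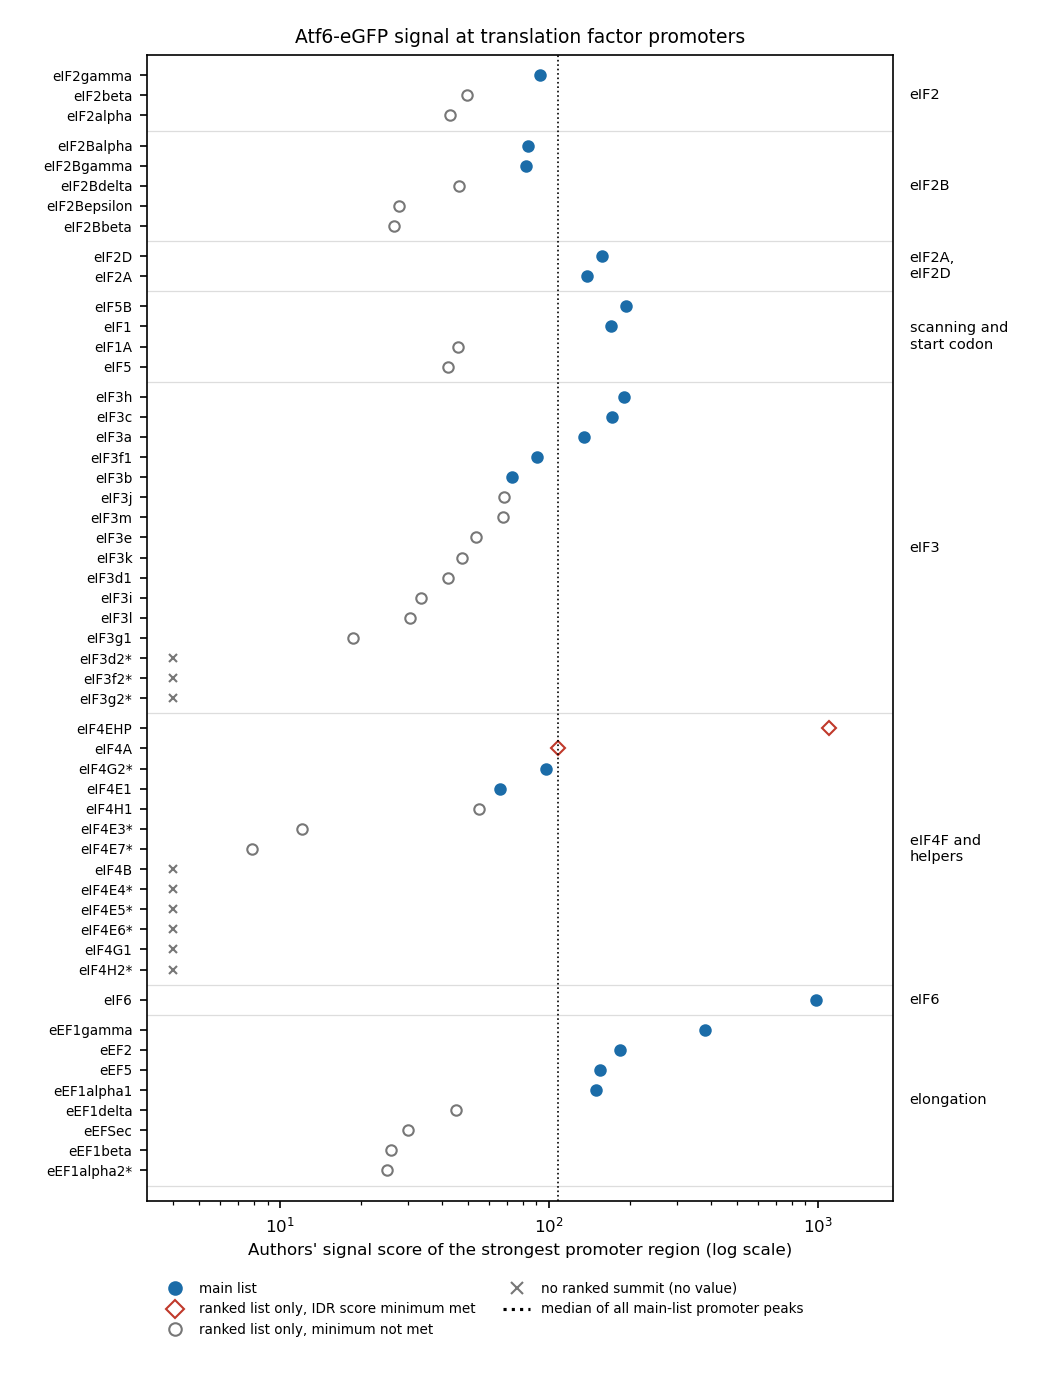
Authors' signal score (log scale) of the strongest promoter region of each of the 52 factor genes, by complex, where filled circles are main-list peaks, red diamonds are ranked regions that met the irreproducible discovery rate (IDR) score minimum but are absent from the main list, open circles are other ranked regions, crosses mark genes without a ranked summit, and an asterisk marks an additional gene copy. eIF4EHP (1107) and eIF6 (986) lie far to the right, and the dotted line is the median of all main-list promoter peaks (108).

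eIF6 carried the strongest main-list peak of the set. Its product binds the large ribosomal subunit and keeps it from joining the small one too early. The peak (2R, 23850242 to 23850565) ranked 44 of 5846, with ranked-list signals of 535 and 449.7 in replicates 1 and 2, and its summit lay at -112 bp from the TSS. Each replicate's thresholded list held it as well. The peak was 324 bp wide and that of eEF1gamma 221 bp, while 16 of the other 17 bound genes had peaks of 396 bp. The median width of all 5846 main-list peaks was also 396 bp.

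Among the elongation genes 4 of 8 were bound. eEF1gamma, a subunit of the complex that recharges eEF1alpha with GTP, reached a signal of 381 (3R, 29220021 to 29220241, rank 350), and 208 and 171 in replicates 1 and 2. eEF2, which moves the ribosome by a codon, had a signal of 185 (2L, 21681898 to 21682293), and 72.6 and 119.6 in replicates 1 and 2. These peaks were in both replicates' own lists, and eEF2 was the lower of the pair in each.

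The elongation gene eEF5, the fly eIF5A that carries the hypusine modification, had a signal of 155 (2R, 24057629 to 24058024), and 76.7 and 75.1 in replicates 1 and 2. eEF1alpha1, which delivers aminoacyl-tRNAs, had 149 at its strongest peak (2R, 11891887 to 11892282), and 76.9 and 73.9 in replicates 1 and 2. It had 3 main-list promoter summits, the others with signals of 83.6 and 24.2, at -168 and 164 bp from the nearest of its 4 TSSs. The peak of 24.2 overlapped the strongest one. The exchange factor subunits eEF1beta and eEF1delta had ranked regions of 25.8 and 45.3 that did not pass, as did the selenocysteine factor gene eEFSec (29.9) and the additional copy eEF1alpha2 (24.9).

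The factors that handle the initiator tRNA were bound in part. In eIF2, the carrier of the initiator tRNA, 1 of 3 subunit genes was bound (Wilson interval 6.15 to 79.2%), against 21.6% of all genes. This was the gamma subunit gene, with a signal of 92.4 (3R, 15263279 to 15263674), and 41.2 and 42.1 in replicates 1 and 2. The same TSS serves Su(var)3-9, a histone methyltransferase gene, and the summit lay at -75 bp from Set, so this peak was counted for 3 genes. eIF2alpha, the target of PEK, had a ranked region of 42.9 and eIF2beta 1 of 49.4, and both were under the threshold.

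Of the 5 subunit genes of eIF2B, which reloads eIF2 with GTP, 2 were bound (Wilson interval 11.8 to 76.9%), against 21.6% of all genes. These were eIF2Balpha and eIF2Bgamma. eIF2Balpha had a signal of 83.7 (3R, 29935688 to 29936083, rank 3892), and 40.9 and 41.7 in replicates 1 and 2. eIF2Bgamma had 82.4 (2R, 15542508 to 15542903, rank 3989), and 37.6 and 48.5 in replicates 1 and 2. The pair thus lay close together, both under the median of all promoter peaks. eIF2Bdelta (46.4), eIF2Bepsilon (27.6) and eIF2Bbeta (26.7) had ranked regions under the threshold. The TSS of eIF2Bbeta lay 688 bp from the summit of the strongest promoter peak of the main list (signal 2416), just outside the distance limit, and the summit of eIF3b, at 432 bp, was the farthest inside it.

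eIF2A and eIF2D, which can bring an initiator tRNA without eIF2, were both bound (Wilson interval 34.2 to 100%), against 21.6% of all genes. eIF2D had a signal of 158 (3R, 29151703 to 29152098), and 102.4 and 53.4 in replicates 1 and 2. eIF2A had 139 (3L, 21824649 to 21825044), and 54.5 and 86.8 in replicates 1 and 2, and only the thresholded list of replicate 2 held it. The replicates thus placed these 2 genes in opposite order.

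Of the factors that scan for and fix the start codon, 2 of 4 were bound. eIF5B, which joins the ribosomal subunits, had a signal of 193 (3L, 3460473 to 3460868), and 106.7 and 83.2 in replicates 1 and 2. eIF1, which guards start codon choice, had 171 (3L, 3222856 to 3223251), and 83.3 and 84.1 in replicates 1 and 2. The eIF1 summit lay at -287 bp from its TSS but at -94 bp from that of RpL28, a ribosomal protein gene on the opposite strand. Ranked regions of 46.1 at eIF1A and 42.0 at eIF5, the activator of GTP cleavage by eIF2, did not pass.

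eIF3, the large scaffold on the small ribosomal subunit, had 5 of 16 genes bound (Wilson interval 14.2 to 55.6%), against 21.6% of all genes. eIF3h had a signal of 190.1 (2L, 5052413 to 5052511), and 80.7 and 103.6 in replicates 1 and 2, and eIF3c, a core subunit gene, had 172 (2R, 17665434 to 17665829), and 109.6 and 68.5 in replicates 1 and 2. eIF3a, another core subunit gene, had 135 (3R, 4433701 to 4434096, rank 1939), and 51 and 84.4 in replicates 1 and 2. eIF3f1 and the core subunit gene eIF3b were lower in the main list. eIF3f1 had 90.7 (3R, 4714025 to 4714420), and 33.7 and 61.0 in replicates 1 and 2, and eIF3b had 72.7 (2R, 17536567 to 17536962), and 37.1 and 45.7 in replicates 1 and 2. The eIF3h peak was 99 bp wide and lay inside the gene, with its summit at 279 bp from a TSS of eIF3h and at -342 bp from that of senju. A second summit of eIF3h had a signal of 84.9, in a peak that overlapped the 99 bp peak. Ranked regions stood at the other 8 subunit genes that are not additional copies, with signals from 18.6 at eIF3g1 to 68.0 at eIF3j.

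Of the 13 genes of the cap-binding group and its helpers, 2 were in the main list (Wilson interval 4.33 to 42.2%), against 21.6% of all genes. eIF4G2, a copy of the scaffold gene that acts in the testis, had a signal of 97.3 (3R, 23819006 to 23819401, rank 3159), and 42.5 and 52.1 in replicates 1 and 2. eIF4E1, the main cap-binding protein gene, had 66.1 (3L, 9401808 to 9402203, rank 5093), and 39.9 and 23.1 in replicates 1 and 2. Neither replicate alone gave a thresholded peak at eIF4E1, the conservative list lacked it too, and the eIF4G2 TSS also serves CG33111. The strongest promoter region of all 52 genes belonged to eIF4EHP, a cap-binding repressor that shuts off caudal mRNA in the early embryo, and it was not in the main list.

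The eIF4EHP region (3R, 24109010 to 24109372) had a signal of 1107 and rank 35 of the 105892 ranked regions, and 618 and 489.5 in the ranked lists of replicates 1 and 2. Its IDR score was 1000, the highest possible, in all 3 ranked lists, and the lowest IDR score in the main list was 830. eIF4A, the helicase gene, had a ranked region of 108 (2L, 5982260 to 5982655) that also had the score 1000 and was also absent from the thresholded lists. In the ranked list of both replicates, 169 of 6015 regions with a score of at least 830 were absent from the main list, and they were the only promoter region with such a score at 81 genes. The thresholded lists were derived with a further file whose content is not stated, and the cause of the absence was not tested. Counting such regions, 21 of 52 factor genes were bound, against 22.2% of all genes. The sequence at the eIF4EHP summit is shown because it is the strongest region of the set, with the words TATAAAA and GGTATTT in capitals on either strand.
eIF4EHP, chr3R:24109128-24109278, minus strand: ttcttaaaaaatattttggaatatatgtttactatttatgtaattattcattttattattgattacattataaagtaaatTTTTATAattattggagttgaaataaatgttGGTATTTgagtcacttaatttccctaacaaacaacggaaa
This stretch held 19.2% G and C. The summit lay 243 bp upstream of the eIF4EHP TSS, within 500 bp of a TSS of CG18428 too.

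Inside some of the genes further main-list summits lay away from the promoters, and their number was not compared with that in other genes. eIF4EHP held 5 of them, with signals from 71.4 to 223, and eIF5B held 6, with signals from 18.4 to 369. The eIF5B peak of 18.4 overlapped another of them, with a signal of 114. eIF4E1 held 1 with a signal of 80.7, higher than that at its promoter. The eIF5B summit with 369 (3L, 3432747 to 3432936) lay 27736 bp from the nearest eIF5B TSS.

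Additional gene copies were counted apart from the other factor genes. Of 11 copies of eIF3 subunit, eIF4E, eIF4G, eIF4H and eEF1alpha genes, 1 was bound (9.09%, Wilson interval 1.62 to 37.7), and of the other 41 factor genes 18 were bound (43.9%, 29.9 to 59.0). The share of all protein-coding genes, 21.6%, lies within the first interval, the intervals overlap, and no test of the difference was made. eIF3d2, eIF3f2, eIF3g2, eIF4E4, eIF4E5, eIF4E6 and eIF4H2 had no ranked summit at the promoter, and eIF4E3 and eIF4E7 had ranked signals of only 12 and 7.87. eIF4B, a helicase cofactor gene, and eIF4G1, the main scaffold gene of the cap complex on chromosome 4, were the remaining 2 genes without a ranked summit, where 75.5% of all genes had one. The nearest main-list summit was 4762864 bp from eIF4B, which lies at 3L 27842669 to 27858271, and 52213 bp from eIF4G1. Other genes around these 2 had few main-list summits too: on chromosome 4, 6 of 80 protein-coding genes (7.5%) had one at the promoter, and none lay near eIF4B.

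None of the 7 factor genes on the X chromosome was bound, against 19.6% of all protein-coding genes there. Those 7 genes, eIF2alpha, eIF2Bbeta, eIF2Bepsilon, eIF3g1, eIF4E7, eIF4H1 and eIF5, had ranked signals from 7.87 to 55.1, with a median of 27.6. The other arms held 19 bound genes of 45 (42.2%, Wilson interval 29.0 to 56.7), against 22.0% of all protein-coding genes not on X. With so few genes, a count of 0 on X allows a share of up to 35.4% by the Wilson interval, which includes the share of all X genes.

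**Figure D2:**
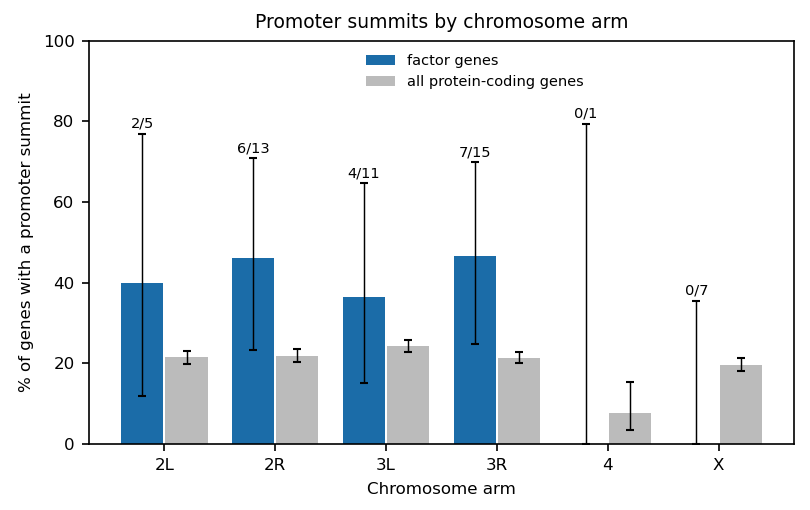
Percent of genes with a main-list promoter summit on each chromosome arm, for factor genes (blue, with the count of bound genes over all) and for all protein-coding genes (grey), with 95% Wilson intervals as bars. On X 0 of 7 factor genes were bound, against 19.6% of all genes on that arm.

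Support from single replicates was uneven among the bound genes. Of the 19 peaks, 11 overlapped thresholded peaks of both single replicates by at least 1 bp, against 47.8% of all main-list promoter peaks. The peaks at eIF2A, eIF2Bgamma, eIF3b and eIF3f1 were found with replicate 2 alone, against 12.8% of all promoter peaks. Those at eIF2gamma, eIF2Balpha, eIF4G2 and eIF4E1 were in neither, against 19.2% of all promoter peaks, with main-list signals from 66.1 to 97.3. None of these 19 main-list peaks was found with replicate 1 alone, against 20.2% of all promoter peaks. The conservative list held 17 of the 19 peaks, all except those at eIF3b and eIF4E1. Over all protein-coding genes, 19.3% had a promoter summit in the conservative list and 21.6% in the main list. Across the 19 peaks Spearman's rho between the signals of the replicates was 0.68, a description across genes whose peaks were all selected on both replicates together. The bound peak nearest the threshold by IDR score was at eIF3b (894), and the nearest outside it was at eIF3m (804), whose peak passed with replicate 1 alone.

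**Figure D3:**
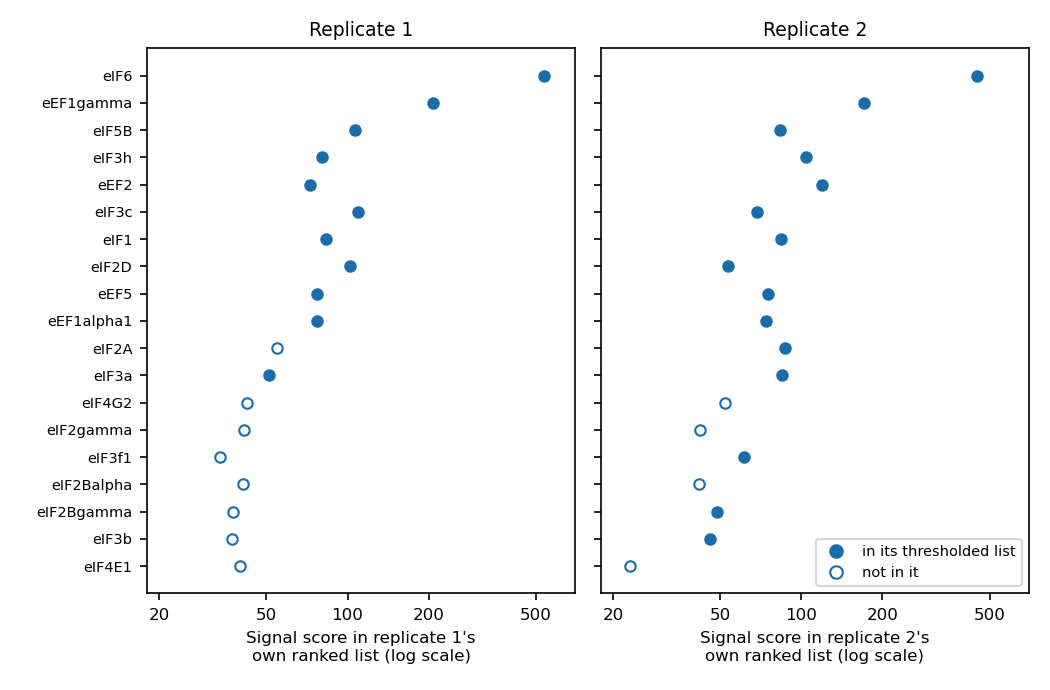
Signal score (log scale) of the 19 bound factor genes in the ranked list of replicate 1 (left) and of replicate 2 (right), ordered by main-list signal, where filled circles are in that replicate's own thresholded list. eIF6 and eEF1gamma lead in both, and eIF4E1 at the bottom is unfilled in both.

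Summits at factor genes lay close to the start site. Of the 19, 11 lay within 50 bp of a TSS of the gene (57.9%, Wilson interval 36.3 to 76.9), against 16.5% of the 3019 genes bound in all. These were eIF3a (-4 bp), eIF2Balpha (2), eIF2gamma (-19), eEF2 (20), eEF5 (-26), eIF4G2 (33), eEF1alpha1 (-37), eEF1gamma (-40), eIF3f1 (-41), eIF2Bgamma (45) and eIF3c (-46). The median position was -19 bp, against -118 bp over all bound genes. A summit upstream of the TSS was found at 11 of 19, against 77.6% of all bound genes and 69.2% of all promoter peaks, counted once each by their nearest TSS. By the most 5′ TSS of each gene 9 of 18 lay within 50 bp, against 15.3%. With the peaks of replicate 1 alone the share fell to 33.3% (4 of 12), against 11.9% of all genes bound there, and with those of replicate 2 alone it was 53.3%, against 16.4%.

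**Figure D4:**
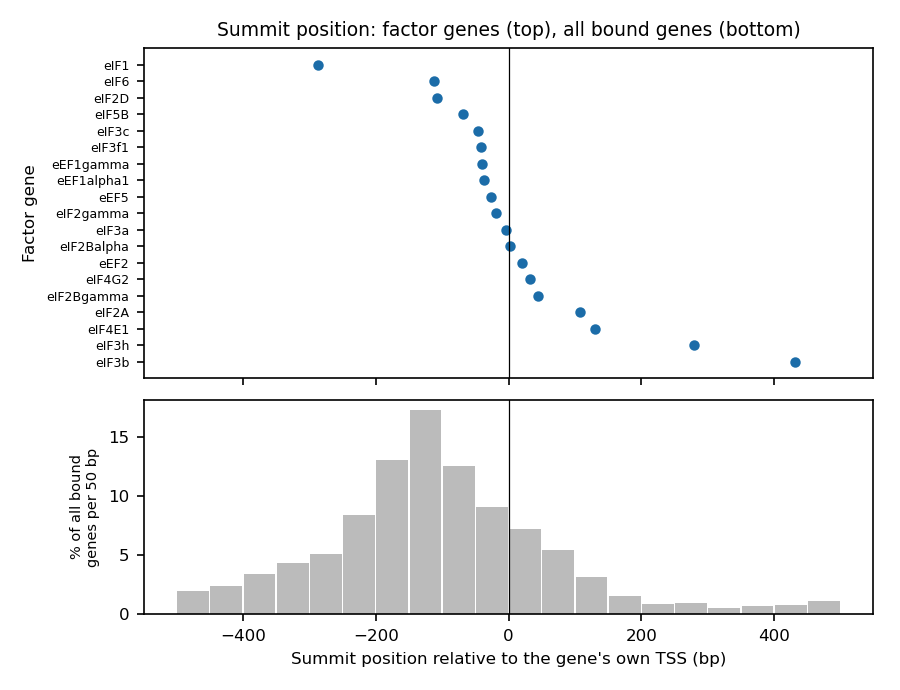
Position of the promoter summit relative to the gene's own TSS in bp, for each of the 19 bound factor genes (top) and as a histogram in percent per 50 bp over all 3019 bound genes (bottom). Most factor gene summits sit near 0, while the histogram peaks upstream.

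At 6 of the 19 bound factor genes (31.6%, Wilson interval 15.4 to 54%) another protein-coding gene had a TSS within 500 bp of the summit, against 49.5% of all 3019 bound genes. The partners were senju at eIF3h, RpL28 at eIF1, CG1074 at eIF3a, CG33111 at eIF4G2, Vps13B at eIF2Balpha, and Su(var)3-9 with Set at eIF2gamma. Counted per peak, 29.6% of all promoter peaks had TSSs of 2 or more genes. No 2 factor genes shared a peak.

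The Dref word was the sequence that differed most in share. TATCGATA, which reads the same on both strands, lay within 50 bp of 6 of 19 factor gene summits (31.6%, Wilson interval 15.4 to 54%), against 2.3% of all 2699 promoter summits of the main list. In the sequences printed at the start, the word begins 41 bp upstream of the TSS at eEF1gamma, where it covers the summit, and at -296 bp from the TSS at eIF1. At eIF3a it begins at -38 bp, at eIF2gamma at -9 bp and at eIF3f1 at -8 bp from the TSS. eIF2A had it downstream, at 136 bp. The eIF2gamma stretch holds the word at 2 places. At eIF1, eIF3a and eIF2gamma the same summit also lay at the promoter of another gene. That of eIF1 was nearer the TSS of the ribosomal protein gene RpL28 (-94 bp) than that of eIF1 (-287 bp). With the peaks of replicate 1 alone the word was at 3 of 12 factor genes, against 2.52% of all genes bound there, and with those of replicate 2 alone at 4 of 15, against 2.34%.

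The share also differed among promoter peaks by how near they lay to a TSS. Among summits within 50 bp of a TSS, the word was present at 4 of 11 factor genes, against 6.22% of all such promoter peaks, and among summits farther away at 2 of 8, against 1.26%. In the stretch from 250 bp before to 50 bp after a TSS, 15 of the 52 factor genes had the word, against 10.2% of all protein-coding genes. These were 7 of the 19 bound genes, against 14.6% of all bound genes, and 8 of the 33 unbound ones, against 8.95% of all unbound genes. The 8 include eIF4A, eIF2alpha and eIF2Bbeta. Among bound cytosolic ribosomal protein genes, 12 of 68 summits had it, against 2.3% of all main-list promoter summits. A match is a run of letters and does not show that Dref was there.

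The other words were searched on both strands within the same window. The core of the site that vertebrate ATF6 binds, TGACGTGG, was at 0 of 19 summits (upper Wilson limit 16.8%), and at 0.0741% of all promoter summits. ACGT, which is part of that core and of many leucine zipper sites, was at 7 of 19, against 18.8%. CCACG, which overlaps the reverse of the ATF6 core, was at 3 of 19, against 7.63%. The M1BP site GGTCACAC was at 1 (eEF1alpha1), against 1.41%, and GGTATTT at 1 (eIF5B), against 2.89%. The TATA box word TATAAAA was at 0 of 19, against 7.85%, which lies under the upper Wilson limit of 16.8%. CTTTC, part of the pyrimidine start of many translation genes, was at 4 of 19, against 20%. The bases within 50 bp of the summit held a median of 45.5% G and C at factor genes, against 37.6% over all promoter peaks. The part of base composition in these shares was not tested.

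**Figure D5:**
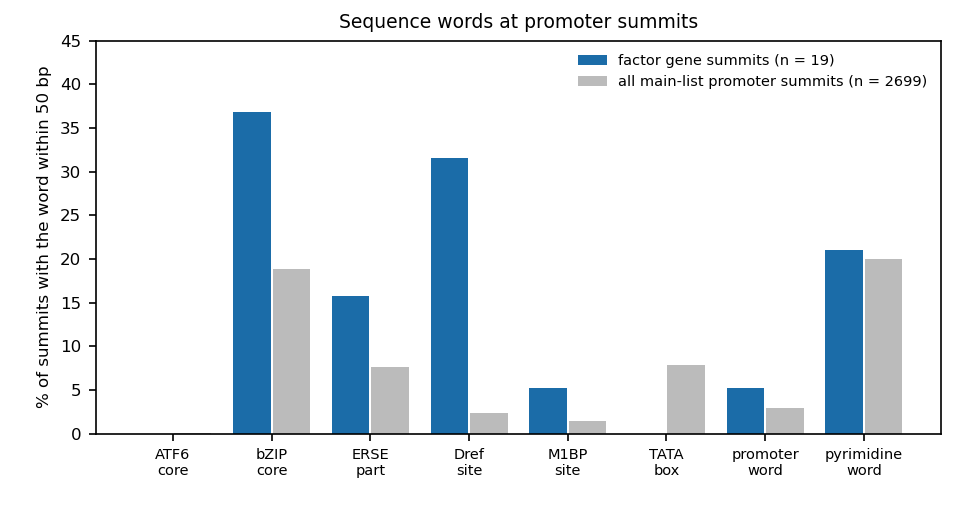
Percent of summits with each of 8 words within 50 bp on either strand, for the 19 factor gene summits (blue) and all 2699 main-list promoter summits (grey). The Dref site stands out at 31.6% against 2.3%. The TATA box word is at 0 of the factor gene summits (upper Wilson limit 16.8%), against 7.85%.

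Other genes of translation were given from lists by role, of which 37 of 40 names matched the annotation. Of genes for release, recycling and rescue of ribosomes, 4 of 7 were bound, against the same 21.6% of all genes: the release factor genes eRF3 (163) and eRF1 (131), and the rescue factor genes pelo (137) and HBS1 (118). Of regulators of initiation 5 of 14 were bound, namely pAbp, the poly(A)-binding protein gene (271), Thor, which encodes the eIF4E-binding protein (183), the helicase gene bel (81.0), the eIF2 kinase gene Gcn2 (73.9) and the kinase gene S6k (73.8). Regions at Lk6, the eIF4E kinase gene (127), and kra (99.5) met the IDR score minimum but were absent from the main list.

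Of the genes that modify eEF5 and eEF2, 2 of 7 were bound, against 21.6% of all genes. These were the diphthamide enzyme genes Dph1 (204) and Dph2 (135). A region at Dph4 (177), of the same pathway, met the IDR score minimum but was absent from the main list. Mitochondrial translation factors had 0 of 9 bound, with ranked signals up to 69.3 at mEFTu2. This count allows a share of up to 29.9% by the Wilson interval, which includes the 21.6% of all genes. None of the 11 bound genes in these lists had TATCGATA within 50 bp of the summit, where 2.3% of all main-list promoter summits had it. With so few genes, a count of 0 does not set these lists apart from all promoter summits. For scale, 68 of 93 cytosolic ribosomal protein genes were bound in the same list. No test of the difference between these lists and the factor genes was made.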

How the data were processed

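Atf6-eGFP peak lists on dm6 from 2 replicates of 1 group were used. The deposited text files state that dm6 alignments and 1 control file lie behind every list, and 1 more file, of unstated content, behind the thresholded ones. The sources used here do not give the aligner or peak caller. The control was not analysed here. Both values used, a signal score and an IDR score (from the irreproducible discovery rate) per peak, are the authors'. All 5846 main-list peaks had the same position and signal in the ranked list of 105892 regions. A replicate's value is that of its own ranked list (98003 regions in replicate 1 and 86005 in replicate 2), and its thresholded list held 4249 or 3424 peaks.

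TSSs were those of Ensembl release 115 (BDGP6, version 54). Sequence was read from the RefSeq assembly, and the last peak of every arm ended within that arm. Of several promoter summits of a gene the strongest was used. The assignment was tested on simulated peaks. Positions are 1-based. All members are accounted for by symbol, and other translation genes are named where bound. Those that met only the IDR score minimum, and the sequence windows of 75 bp on each side, wider than first set, were chosen after values were seen. The members, lists and words were chosen with earlier results of these data known, so shares are descriptions without tests. Alternatives changed the list, distance, TSS set, overlap and word window. Tools were matplotlib 3.10.9 for figures, SciPy 1.17.1, pandas 2.3.3 and numpy 2.4.6 under Python 3.11.15.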

Additional observations from a re-analysis of the deposited data

How the results depend on the processing

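Of 11 alternatives for the share of bound factor genes, 9 stayed within its Wilson interval (summit distances of 200 and 1000 bp, the conservative list, replicate 2 alone, any base of the peak, nearest gene only, the most 5′ TSS, regions that met the IDR score minimum, and no X genes; the last 2 were added after seeing the data), with 28.8 to 42.2%. Across those 9 the share of all protein-coding genes bound ran from 14.2 to 25.4%. The Wilson interval covers counting error over genes, not the choice of list or distance. With only main-list peaks at or above the median signal 23.1% of factor genes (12 of 52) and 29.3% of those that are not additional copies were bound, with a median percentile of 50.6. Fewer peaks enter there by construction, and 13.6% of all genes were bound. Over the lists of single replicates the share of factor genes was 23.1 to 28.8%, that without additional copies 29.3 to 36.6%, the median percentile 54.5 to 62.4, the share of summits within 50 bp of a TSS 33.3 to 53.3% and the share with TATCGATA 25 to 26.7% (3 of 12 and 4 of 15 genes, against 2.52% and 2.34% of all genes bound). The cause of these differences was not tested. The alternatives for summit position and TATCGATA by list or TSS were also added after seeing the data. The count of 11 peaks in both replicates' own lists was the same under either stricter overlap. TATCGATA was at 3 of 19 summits with a window of 25 bp, against 1.07% of all promoter summits, and at 6 with 100 bp, against 5.26%. No paired analysis was possible because there is 1 group. The lists give no read depth, so weak promoters cannot be told apart from shallow sequencing.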
